A study of Homo sapiens with 2 samples.

Results

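Pseudogenes are copies of genes that carry features, such as premature stops, that led annotators not to count them as protein-coding. The set described here holds the 10194 pseudogenes, of 40210 genes in all, that the deposited isoform table lists with the biotype pseudogene, an exact match to an annotated transcript, a length of 200 bases or more and a place outside chromosome Y. They are represented by 11566 of the table's 202463 transcripts, and the value of a gene is the sum of FPKM (mapped fragments, corrected for transcript length and library size) over its transcripts. The study compared young and senescent WI-38 cells, an established line of diploid fibroblasts from human lung, grown in DMEM. The young sample was taken at population doubling level 20 and the senescent sample at level 52, after replicative senescence, the lasting arrest that such cells enter when they have divided many times. The labels name no other treatment, and total RNA was sequenced after amplification that keeps transcripts with and without a poly(A) tail. Each group had 1 library, so there is no replicate check and no test between the groups. Every comparison below is between those libraries, by a fixed rule of size.

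Most human pseudogenes are processed: a messenger RNA was copied back into DNA and inserted elsewhere, without introns and usually without its promoter. Highly expressed genes, such as those for ribosomal proteins, glycolytic enzymes and ferritin, have left many such copies. Unprocessed pseudogenes come from duplicated DNA and keep introns, and nuclear copies of mitochondrial DNA are a further class. Because a pseudogene resembles its parent, a sequencing read from one can align to the other, so that a pseudogene's FPKM can contain reads of its parent.

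The likeness is visible in stretches of 90 bases, chosen because the results turn on these copies. Each line is read 5′ to 3′ on the coding strand, from the annotated transcript (GENCODE 29) matched by its identifier to the table, and capitals mark the bases at which a pseudogene and its relative differ. The first stretch comes from MTCO1P12, listed as RP5-857K21.6 at chr1:566454-567996, hg19, plus strand. It is a nuclear copy of the mitochondrial gene for cytochrome c oxidase subunit I, and its 90 bases were the same in MT-CO1.
MTCO1P12: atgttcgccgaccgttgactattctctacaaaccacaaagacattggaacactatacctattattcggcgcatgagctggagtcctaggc
PTMAP5 (chr13:82264203-82264535, plus strand) is a copy of PTMA, the gene of the chromatin-associated protein prothymosin alpha, and differed at 2 bases of 90.
PTMAP5: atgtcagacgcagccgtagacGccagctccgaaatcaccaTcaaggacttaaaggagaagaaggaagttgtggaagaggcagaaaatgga
PTMA: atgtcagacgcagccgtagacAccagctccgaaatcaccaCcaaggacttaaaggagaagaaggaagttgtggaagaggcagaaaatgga
RRM2P3 (chrX:44168560-44169722, minus strand) is a copy of RRM2, which encodes a subunit of ribonucleotide reductase, and differed at 5 bases.
RRM2P3: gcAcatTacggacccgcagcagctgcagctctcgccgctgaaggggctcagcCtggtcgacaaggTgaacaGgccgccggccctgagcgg
RRM2: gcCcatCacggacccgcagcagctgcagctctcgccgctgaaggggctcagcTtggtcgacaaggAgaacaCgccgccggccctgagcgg
FTLP3 (chr20:4004552-4005091, plus strand) is a copy of FTL, the light chain of the iron store ferritin, and differed at 1 base.
FTLP3: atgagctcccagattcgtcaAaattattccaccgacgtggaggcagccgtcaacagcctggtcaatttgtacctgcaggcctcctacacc
FTL: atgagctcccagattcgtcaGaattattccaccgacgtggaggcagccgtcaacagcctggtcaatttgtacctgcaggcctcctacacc
H2BFS (chr21:44985120-44985500, plus strand) is a histone H2B sequence and differed from HIST1H2BK at 2 bases.
H2BFS: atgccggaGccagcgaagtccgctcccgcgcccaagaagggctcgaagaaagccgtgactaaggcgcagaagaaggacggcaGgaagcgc
HIST1H2BK: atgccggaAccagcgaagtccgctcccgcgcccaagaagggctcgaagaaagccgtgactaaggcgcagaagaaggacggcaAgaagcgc
RPL23AP45 (listed as AC138031.1, chr5:180898964-180899431, plus strand) and RPL23AP60 (listed as XXyac-YRM2136_A.1, chr10:135515571-135516024, plus strand) carried the same 90 bases, which differed from those of RPL23A, a protein of the large ribosomal subunit, at 9 positions. This stretch is shown because these copies departed from their parent in the results.
RPL23AP45 and RPL23AP60: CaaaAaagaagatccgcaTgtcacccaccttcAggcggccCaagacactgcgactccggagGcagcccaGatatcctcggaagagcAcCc
RPL23A: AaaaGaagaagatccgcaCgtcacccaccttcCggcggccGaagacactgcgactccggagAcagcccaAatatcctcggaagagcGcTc
DYNLT3P2 (chr2:128957475-128957767, plus strand) is a copy of DYNLT3, a dynein light chain. It is shown as a copy that shares no stretch of 50 bases with the parent's coding transcripts, since its differences lie close together, 3 of them in these 90 bases.
DYNLT3P2: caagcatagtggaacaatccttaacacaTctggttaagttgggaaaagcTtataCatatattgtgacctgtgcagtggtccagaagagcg
DYNLT3: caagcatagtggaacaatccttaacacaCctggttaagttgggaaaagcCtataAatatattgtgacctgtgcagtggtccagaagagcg

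Across all matched members the same comparison gave a scale of likeness. Of 2816 pseudogenes that passed the filter on level described next, 2480 had a transcript sequence and 2433 aligned to a coding transcript of another gene, with a median identity of 93.6%. In 482 of the 2480, no window of 50 bases was found in any coding transcript, in 1510 up to 25% of windows were, and in 488 more than 25%. No read length is used here, so the windows describe sequence likeness and not the share of reads that could be placed on either copy.

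Known genes of growth arrest were read first, as a check of the labels. LMNB1, a nuclear lamin lost in senescence, was at 36.9 FPKM in the young and 0.845 FPKM in the senescent library, MKI67, a marker of dividing cells, at 24.2 and 1.003 FPKM, and CDKN1A, an inhibitor of the cell cycle, at 306 and 862 FPKM. CDKN2A, another such inhibitor, was nearly level at 27.3 and 30.4 FPKM, TOP2A of dividing cells was at 11.9 and 0.999 FPKM, and GLB1, the lysosomal galactosidase gene, at 99.5 and 163 FPKM. All 10 fibroblast markers were measured, with a summed level of 8574 FPKM in the young and 4528 FPKM in the senescent library. Of the markers of other cells, 3 of 6 epithelial, 1 of 5 endothelial and 2 of 6 blood markers were measured. Their summed levels were 14.9 and 9.90, 10.3 and 5.33, and 55.1 and 42.5 FPKM in the young and senescent library. SFTPC of lung epithelium, CDH5 of endothelium and HBA1 of red blood cells were at 0 in both, and PECAM1 of endothelium was not listed. The highest young value of each list was CD163 (blood) at 53.9 and 40.3 FPKM, TEK (endothelial) at 10.2 and 5.27 FPKM and KRT19 (epithelial) at 9.63 and 1.37 FPKM. The part of other cells in the pseudogene results was not tested. The file gives no read counts. From the steps between low values of unnamed intergenic loci, 1 fragment on a transcript of 300 bases was worth 0.629 FPKM in the young and 0.675 FPKM in the senescent library, and on one of 700 bases 0.126 and 0.135 FPKM.

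Of the 10194 pseudogenes, 3292 were listed at 0 in both libraries, 6902 were above 0 in at least 1, and 2816 (27.6%) reached 1 FPKM in at least 1 library. These 2816 are called measured below, and the log2 ratio of a gene is that of (FPKM + 1), senescent over young, which understates the change of low genes. Pseudogenes sat lower than coding genes: the median of the higher of both libraries was 3.76 FPKM for measured pseudogenes and 10.05 FPKM for the 11941 measured coding genes. By the rule of 2-fold on this scale, 68 pseudogenes were higher in the senescent library (2.41%) and 110 were lower (3.91%), beside 6.16% higher and 8.03% lower of all 16369 measured genes. Of the measured coding genes, 7.06% were higher and 9.14% lower. Fewer cells of a type and less RNA per cell cannot be told apart in such bulk samples.

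The middle of the pseudogenes lay below that of other genes. Their median log2 ratio was -0.25, with quartiles at -0.55 and 0.13, beside -0.11 for all measured genes and -0.06 for coding genes. The distance grew with level. Among the 1199 pseudogenes at 5 FPKM or more the median was -0.34, with 39 higher (3.25%) and 60 lower (5%), whereas the 8205 coding genes at that level had a median of -0.02, with 7.93% higher and 9.25% lower. Of all genes at that level, 7.43% were higher and 8.78% lower. At 100 FPKM or more the median log2 ratio was -0.42 for 109 pseudogenes and 0.16 for 799 coding genes. The share of pseudogenes in the summed FPKM of all genes was nevertheless close in both libraries, 13.1% in the young and 13.5% in the senescent one. This closeness depends on the clustered nuclear copies of mitochondrial genes described below. Those copies made up 30.3% of pseudogene FPKM for young cells but 45.5% for senescent cells. The share of the remaining pseudogenes was therefore smaller in senescent cells. Processed pseudogenes were the bulk, with 2265 of 7712 measured, 45 higher, 89 lower and a median of -0.26. Unprocessed ones had 337 of 1758 measured, with 17 higher, 10 lower and a median of -0.16.

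**Figure D1:**
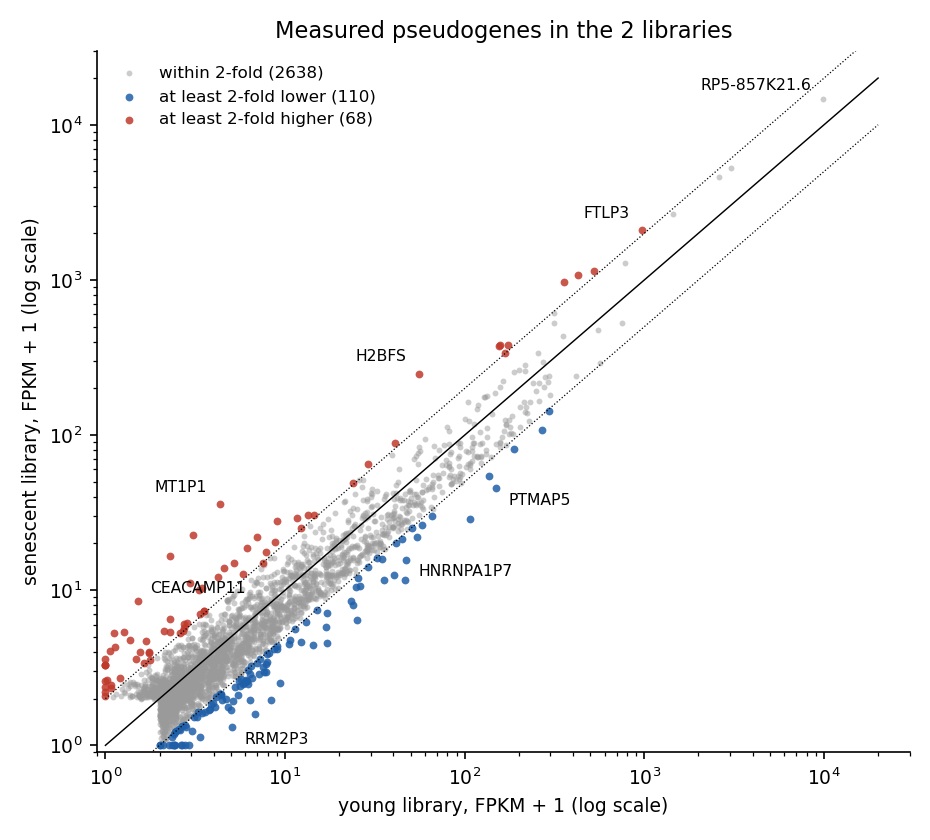
Level of each measured pseudogene in the young (x axis) and the senescent library (y axis), both as FPKM + 1 on log scales, with the line of equal level and dotted lines at 2-fold. Most of the 2816 points lie between the dotted lines, 110 lie below them and 68 above, and the labels name members at the edges and at the highest level (RP5-857K21.6 is MTCO1P12).

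The most abundant pseudogenes were nuclear copies of mitochondrial genes, and they were higher in the senescent library. Under current names 18 such copies were measured, 17 of them higher in the senescent library by any amount and 5 of them 2-fold. At the head stood MTCO1P12 at 9917 FPKM in the young and 14760 FPKM in the senescent library, a log2 ratio of 0.57. MTCO3P12 (RP5-857K21.11), a copy of the gene for subunit III of the same enzyme, was at 3032 and 5289 FPKM. MTCO2P12 (RP5-857K21.7), a copy of that for subunit II, was at 2589 and 4615 FPKM. These copies were all higher in the senescent library but within 2-fold. MTATP6P1 (RP5-857K21.10), a copy of an ATP synthase gene, was at 1448 and 2651 FPKM. Past 2-fold were copies of genes for subunits of NADH dehydrogenase, the entry enzyme of the respiratory chain: MTND2P28 (RP5-857K21.8) was at 357 and 973 FPKM and MTND1P23 (RP5-857K21.9) at 425 and 1069 FPKM.

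These copies lay in clusters. At chr1:564442-570302, 7 copies were measured, 2 of them 2-fold higher, with an identity of 97.6% to 99.1% to the mitochondrial genes. At chr5:134258993-134264016, 5 further copies were measured inside PCBD2, a nuclear gene that spans them, 4 on the strand opposite to it and MTND6P4, at 103 and 163 FPKM, on its own strand. They were 92.4% to 95.8% identical and shared at most 18.0% of their 50-base windows with any coding transcript, and 3 of the 5 were 2-fold higher. Of these, MTND4P12 (CTB-36O1.5) was at 525 FPKM in the young and 1139 FPKM in the senescent library, MTND5P11 (CTB-36O1.6) at 154 and 373 FPKM, and MTND4LP30 (CTB-36O1.4) at 167 and 339 FPKM. PCBD2 itself was at 2.53 and 3.08 FPKM. Over both clusters the median log2 ratio was 0.92, from 0.57 to 1.45. The 1 exception among the 18 was MTCO3P40 (RP11-15B24.2), near the limit of measurement at 1.003 and 0.618 FPKM. The copies of both clusters took 30.3% of the summed pseudogene FPKM of the young cells and 45.5% of that of the senescent cells. Only 1 transcript of the table is placed on the mitochondrial chromosome itself. Nuclear transcription of these copies and reads from mitochondrial RNA were not separated, and their parts in these values were not tested.

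**Figure D2:**
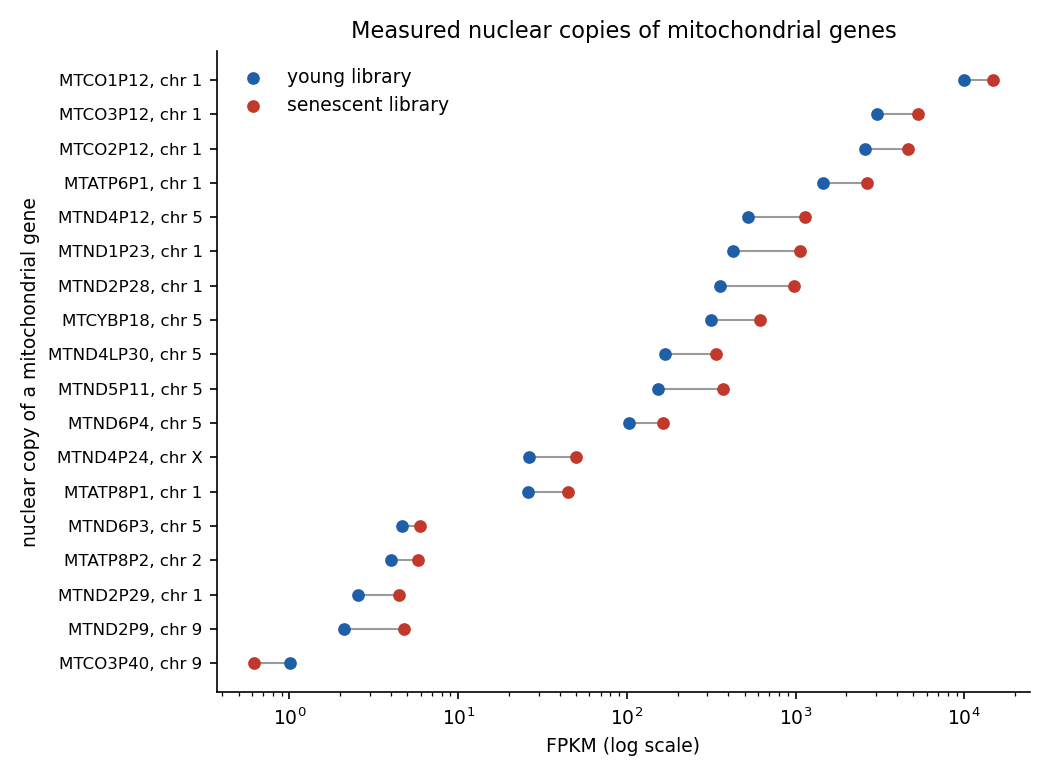
FPKM (log scale) of the 18 measured nuclear copies of mitochondrial genes in the young and the senescent library, with a line joining the values of each copy and the chromosome of the copy beside its name. In 17 copies the senescent value lies to the right of the young one, from MTCO1P12 at the top down to copies of a few FPKM, and MTCO3P40 is the exception.

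Grouped by the start of their symbol in the file, pseudogenes of different parents had medians on different sides of 0. Beside them stand all 2816 measured pseudogenes, of which 67.3% had a negative ratio, 2.41% were 2-fold higher and 3.91% 2-fold lower. Of 127 measured pseudogenes of ribosomal protein genes, 105 had a negative log2 ratio, 6 were 2-fold lower and none was 2-fold higher, with a median of -0.45. The 2-fold count of this list is near that of all measured pseudogenes. Of 46 of translation factors, 44 were negative and 1 was 2-fold lower, EIF4BP3, at 31.4 and 15.2 FPKM, a copy of an initiation factor gene that a rescaling to a median ratio of 1 brought to a log2 ratio of -0.92, with a list median of -0.39. RNA-binding and splicing proteins had 6 of 32 pseudogenes 2-fold lower, none 2-fold higher and a median of -0.54. Of these 6, 5 were copies of HNRNPA1. Copies of chromatin genes had 10 of 55 lower, 2 higher and a median of -0.60, and copies of cell-division and replication genes had 5 of 12 lower, none higher and a median of -0.92. This last value rests on the names in the file: under current symbols the list had 33 measured pseudogenes, 5 lower, 1 higher and 13 positive, with a median of -0.19. The list is defined by the older symbol start H2AFZ, and copies of that gene are now named H2AZP. H2AFZP1 and H2AFZP3, both 2-fold lower, therefore drop out of it under current symbols, so the current-symbol list is not simply a fuller one. The list for energy metabolism and iron lay on the other side, with 70 of 83 positive, 5 of them 2-fold higher, 1 2-fold lower and a median of 0.39. Cytoskeletal genes (30 measured, 1 in each direction, median 0.09) and ubiquitin, proteasome and chaperone genes (59 measured, 1 in each direction, median 0.03) lay near 0. Under current symbols the median was -0.56 for 95 copies of chromatin genes, -0.50 for 653 of ribosomal protein genes, of which 18 were 2-fold lower and 1 higher, and -0.04 for 67 of cytoskeletal genes, which turned sign, while the other 4 of these lists kept theirs. The lists were written with earlier results of these data known, and symbols of the cell-division list overlap those of the chromatin list. Several copies of 1 parent are counted in a list, such as 24 of GAPDH, 14 of FTH1 and 10 of PHB among the 83 of energy metabolism and iron. The lower members of the cell-division list include copies of RRM2 and H2AFZ. Copies of 1 parent can share reads and are not separate measurements.

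**Figure D3:**
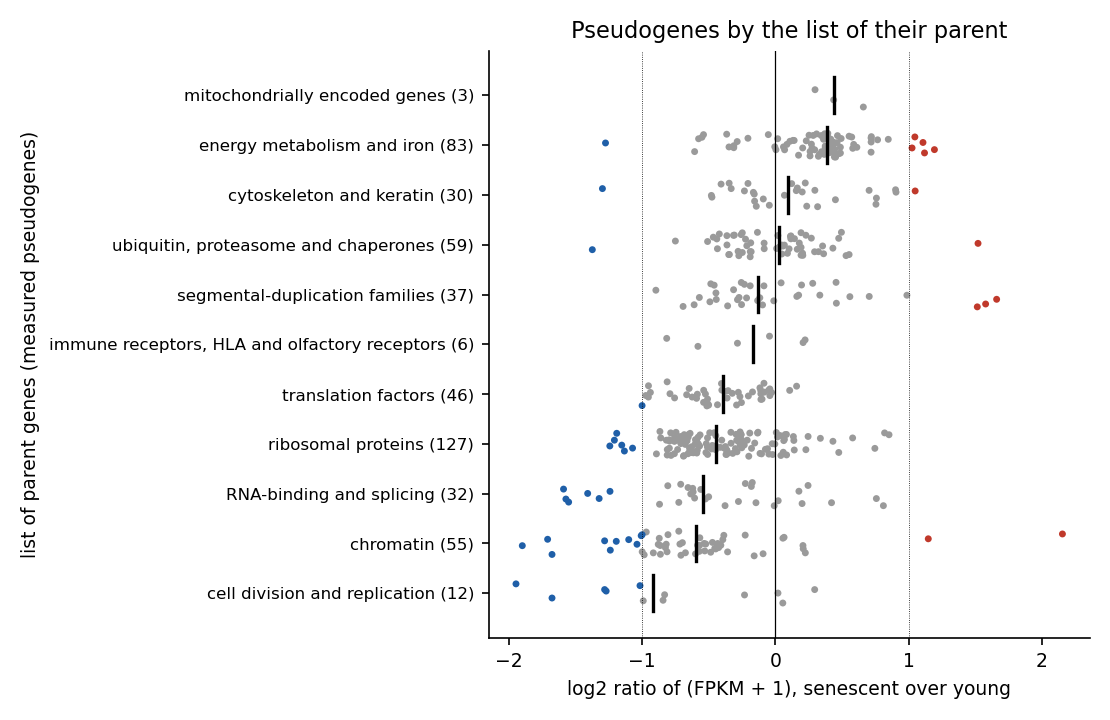
Log2 ratio of (FPKM + 1), senescent over young, of each measured pseudogene, grouped by list of parent genes with the number of measured members in brackets and a bar at each median. Blue points are at least 2-fold lower and red points at least 2-fold higher. Lists are by the symbol in the file, under which the median is -0.92 for cell division and replication. Under current symbols it is -0.19, with the copies of H2AFZ no longer in that list. The median is 0.44 for the 3 mitochondrial copies that carry such a symbol (0.85 for all 18 under current symbols).

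Copies of some chromatin and cell-cycle genes were among the pseudogenes of lowest ratio. PTMAP5 was at 148 FPKM in the young and 44.4 FPKM in the senescent library, a log2 ratio of -1.71, and PTMAP2 (CTB-161M19.3) at 106 and 27.8 FPKM. Their parent PTMA was at 447 and 112 FPKM. All 8 measured PTMA copies, by file or current symbol, were lower in the senescent library, 7 of them 2-fold, with a median of -1.57. H2AFZP3, a copy of the gene of the histone variant H2A.Z, was at 39.2 and 11.6 FPKM, beside 332 and 106 FPKM for H2AFZ. RRM2P3 was at 4.04 and 0.306 FPKM, which a pseudocount of 5 FPKM brings inside 2-fold, and RRM2 was at 69.8 and 3.52 FPKM. Copies of HNRNPA1, a nuclear RNA-binding protein of splicing, numbered 17, all lower in the senescent library and 8 of them 2-fold. The parent was at 145 and 42.5 FPKM, its copy HNRNPA1P7 at 46.3 and 14.7 FPKM and HNRNPA1P10 at 23.0 and 7.06 FPKM. NASPP1 (AC022182.2), a copy of a histone chaperone gene, was at 5.39 and 0.946 FPKM. An unnamed copy of UHRF1, a factor that maintains DNA methylation (RP11-424C20.2, 99.4% identical), was at 16.1 and 3.59 FPKM, nearly the level of UHRF1 in the table, 15.4 and 3.41 FPKM.

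Most copies of ferritin and glycolytic genes lay on the other side. FTLP3 was at 967 FPKM in the young and 2084 FPKM in the senescent library and FTLP2 at 173 and 377 FPKM, log2 ratios of 1.11 and 1.12. Of the other measured copies, FTLP15 was at 4.21 and 8.37 FPKM and FTLP6 (RP11-658F2.2) at 2.09 and 1.59 FPKM, so that 1 of the 4 lay on the lower side. Their parent FTL was at 3128 and 6959 FPKM. All 14 measured copies of FTH1, the ferritin heavy chain, were higher in the senescent library, none 2-fold, with a median of 0.40 and FTH1 itself at 903 and 1195 FPKM. Of 28 copies of GAPDH, a glycolytic enzyme, 26 were higher, 1 of them 2-fold, with a median of 0.41, beside 2089 and 2828 FPKM for GAPDH. All 5 copies of LDHA, lactate dehydrogenase, had a positive ratio, with a median of 0.72. The 3 copies of ANXA2, a membrane-binding protein, did too, among them ANXA2P2 at 312 and 528 FPKM. AKR1B1P1 and AKR1B1P2, copies of the aldose reductase gene, were at 3.26 and 11.2 and at 2.46 and 9.32 FPKM, with AKR1B1 at 188 and 826 FPKM. CALM2P3, a copy of a calmodulin gene, was at 12.4 and 29.6 FPKM, with CALM2 at 239 and 613 FPKM.

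The parent was known from the symbol in 644 pairs with both members measured, from 309 parents. In 36 pairs the pseudogene and its parent were past 2-fold in the same direction, 12 higher and 24 lower, and in 0 pairs in opposite directions. Both log2 ratios had the same sign in 532 pairs (82.6%). The median gap, pseudogene minus parent, was 0.02, the median size of the gap 0.18, and 536 pairs lay within 0.5. Across the pairs Pearson's r of the log2 ratios was 0.77 and Spearman's rho 0.76, a description only, since pairs share parents and libraries and some reads may be counted on either member. With 1 mean value for each of the 309 parents both were 0.79. The pseudogene's level was a median 5.58% of the parent's. In 55 pairs only the parent was past 2-fold and in 13 only the pseudogene, of which 12 had a parent of the same sign.

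The likeness between pseudogene and parent weakened where their sequences differed most. Among 91 pairs that shared no 50-base window, r was 0.42, the median size of the gap 0.35 and the pseudogene's level a median 0.962% of the parent's. Of these pairs 2 were past 2-fold in the same direction. DYNLT3P2 was at 2.31 FPKM in the young and 9.02 FPKM in the senescent library, beside 28.99 and 103 FPKM for DYNLT3. H2AFZP1 had 1.43 FPKM in young cells and is listed at 0 in senescent cells. Among 385 pairs that shared up to 25% of windows, r was 0.84, with 21 pairs past 2-fold together. Among 108 pairs that shared more, r was 0.87, with 10 such pairs and a level of 29.9% of the parent's. Levels differ along with the windows, with medians of 2.03, 4.28 and 11.1 FPKM in these groups. Among the 46 pairs without a shared window whose pseudogene had a mean of 2 FPKM or more, r was 0.60, both ratios had the same sign in 80.4% and the median size of the gap was 0.30. The part of shared reads was not tested. Features of lost coding ability made less difference. Of 582 pairs with aligned coding bases, 456 had an in-frame stop or a frame-breaking gap, and r was 0.76 in these and 0.83 in the other 126, in which none was found.

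**Figure D4:**
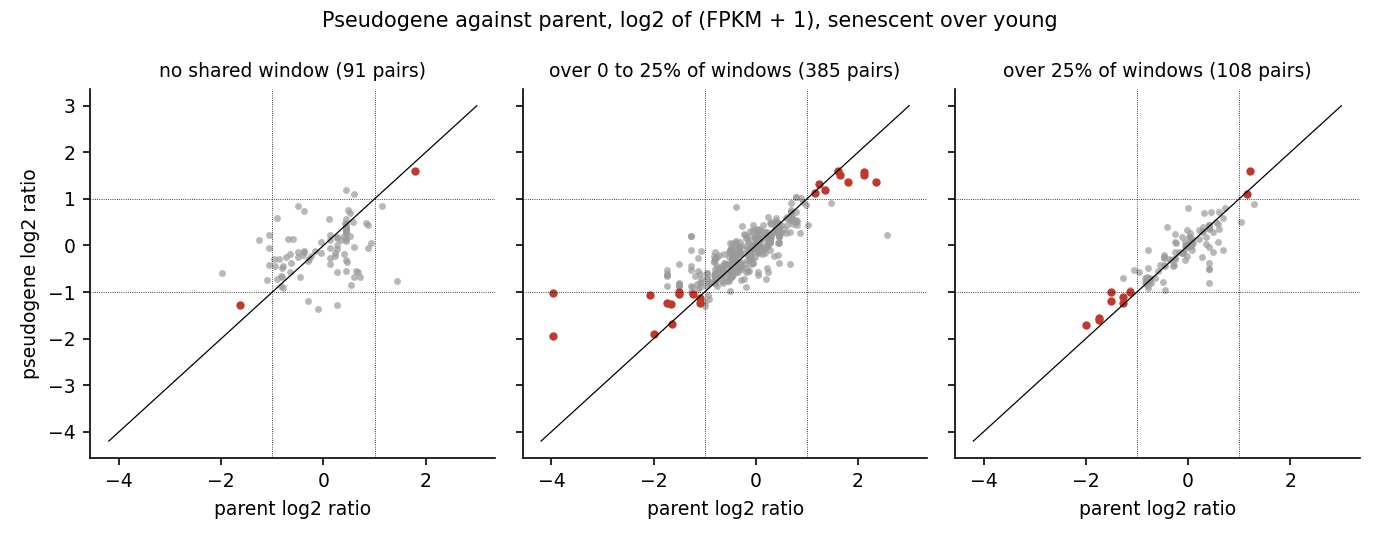
Log2 ratio of (FPKM + 1) of the pseudogene (y axis) against that of its parent (x axis), in 3 classes by the share of the pseudogene's 50-base windows found in the parent, with the line of equality and dotted lines at 2-fold. Red points are pairs past 2-fold in the same direction: 2 of 91 pairs with no shared window, 21 of 385 and 10 of 108.

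By sequence rather than by name, 2320 measured pseudogenes had a measured closest coding gene, 943 genes in all, with r of 0.68. Of 136 such pseudogenes past 2-fold, the closest gene was past 2-fold in the same direction for 73, within 2-fold for 60 and in the opposite direction for 3. In pseudogenes with no window in any coding transcript, r was 0.23 over 393. There, 24 of 482 (4.98%) were 2-fold higher and 31 (6.43%) lower, beside 2.41% and 3.91% of all measured pseudogenes. The closest gene moved with 9 of the 41 past 2-fold that had one. Among pseudogenes with up to 25% of windows shared r was 0.79, and the closest gene moved with 44 of 66. Among those that shared more, r was 0.82, and the closest gene moved with 20 of 29. Levels differ along with these classes, with median means of 1.62, 3.46 and 6.98 FPKM, and the part of level was not tested.

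Large families of copies mostly followed the sign of their parent. Of 23 parents with 14 or more measured copies, by file or current symbol, the median copy had the parent's sign in all 23. Of the 559 copies, 523 did. Most of these parents were ribosomal protein genes, and most were lower in the senescent library, as were 67.3% of all measured pseudogenes. A negative sign is therefore common whatever the parent. The parents with a positive ratio were FTH1, GAPDH, PPIA (652 and 788 FPKM) and RPS26 (nearly level at 19.4 and 20.5 FPKM). Of their copies, 14 of 14, 26 of 28, 41 of 46 and 17 of 20 were higher, beside 32.7% of all measured pseudogenes. The copies of RPS26 had a median log2 ratio of 0.08, so their sign says little. Copies of the same parent can share reads and are not separate measurements. Every copy of RPSA (33 copies), of NPM1, a nucleolar chaperone (29 copies), and of EEF1A1, the elongation factor that brings transfer RNA to the ribosome (21 copies), was lower in the senescent library, as was each parent. Of 77 parents with 5 or more copies, the median copy had the parent's sign for 72.

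**Figure D5:**
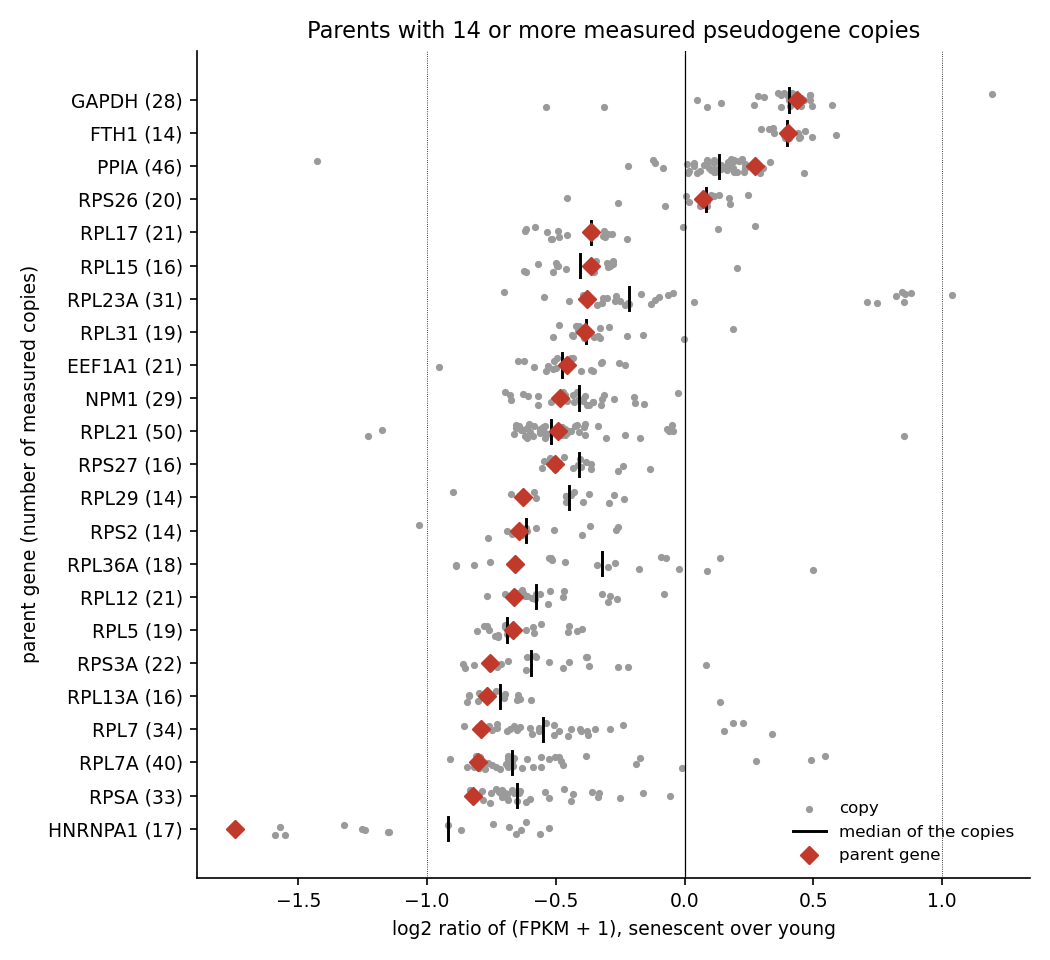
Log2 ratio of (FPKM + 1), senescent over young, of every measured copy (grey points) of the 23 parents with 14 or more copies, with the median of the copies (bar) and the parent (red diamond). All bars lie on the parent's side of 0; copies of RPL23A form a separate group between 0.71 and 1.04.

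RPL23A was the family whose copies split. The split was seen in the values first, so it is a description. The parent was at 107 FPKM in the young and 81.9 FPKM in the senescent library. Of its 31 copies, 23 had log2 ratios from -0.70 to 0.03, with a median of -0.27, and the other 8 had ratios from 0.71 to 1.04, with a median of 0.85, without overlap. Of those 8, 7 lie within 500 kb of the first or last gene annotated on their chromosome, and 6 are the last annotated gene itself. RPL23AP45 on chromosome 5 was at 3.73 and 7.54 FPKM, RPL23AP60 on chromosome 10 at 3.73 and 7.70 FPKM, RPL23AP47 (XX-C2158C6.2) on chromosome 6 at 3.80 and 7.61 FPKM and RPL23AP25 (AL672183.2) on chromosome 1 at 5.87 and 10.2 FPKM. RPL23AP4 on chromosome 21 was at 6.09 and 10.9 FPKM. RPL23AP82 (AC002055.4), the last gene of chromosome 22 in the table, was at 22.9 and 48.1 FPKM. RPL23AP7 at chr2:114368079-114384667, in the region where ancestral chromosomes are known to have joined end to end, was at 11.7 and 21.4 FPKM.

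The 8 copies are also close to each other in sequence. They were 97.9% to 100% identical among themselves, 90.5% to 91.6% identical to RPL23A, and shared at most 0.725% of windows with coding transcripts. The other copies were 76.6% to 95.8% identical to each other. Values of such near-identical copies are uncertain one by one, since reads can be divided among them, and the 8 are not separate measurements. Place alone did not mark other members. Of all 32 measured pseudogenes within 500 kb of an end, 11 had a positive ratio, these 7 among them, and their median was -0.14, beside -0.25 for the 2784 farther away. RABL2B, a coding gene of a small GTPase that overlaps RPL23AP82, was at 6.43 and 12.6 FPKM, and RABL2A beside RPL23AP7 at 9.25 and 10.1 FPKM.

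Several pairs parted from each other. PRPS1P2 was at 5.83 and 6.93 FPKM while PRPS1, an enzyme of nucleotide synthesis, was at 12.4 and 78.2 FPKM, a gap of -2.35. MRPL53P1 was at 6.41 and 3.08 FPKM while MRPL53, a mitochondrial ribosomal protein, was at 26.9 and 39.5 FPKM. HSPD1P11 was at 6.65 and 1.95 FPKM while HSPD1, the mitochondrial chaperonin, was at 123 and 114 FPKM. HSPD1P11 lies on the same strand inside RHOBTB3, which was at 296 and 135 FPKM. On the other side, KCTD9P2 was at 4.89 and 6.74 FPKM while KCTD9 was at 14.7 and 10.8 FPKM. No other measured coding gene overlaps KCTD9P2. Under current symbols 1 pair was past 2-fold in opposite directions. UBE2CP3 was at 0.687 and 3.70 FPKM while UBE2C, a ubiquitin-conjugating enzyme of mitosis, had a log2 ratio of -3.12. UBE2CP3 lies on the opposite strand within IGFBP7, a secreted binding protein of growth factors, at 8.59 and 190 FPKM.

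In 22 pairs the pseudogene had the higher mean FPKM. The most abundant was RPLP0P6 at 130 and 74.2 FPKM, against 83.9 and 50.7 FPKM for RPLP0, a protein of the ribosomal stalk, at 98.8% identity. LSM12P1 was at 42.4 and 38.2 FPKM against 28.2 and 23.5 FPKM for LSM12, with 100% identity, so that the members of this pair cannot be told apart by sequence in the aligned part. RBMS2P1 was at 20.2 and 36.1 FPKM against 17.5 and 29.4 FPKM for RBMS2. CRYBB2P1, an unprocessed copy of a lens crystallin gene, was at 16.3 and 27.6 FPKM, whereas CRYBB2 was at 2.84 and 4.26 FPKM. These 4 pairs are examples, with gaps of log2 ratios (pseudogene minus parent) between -0.08 and 0.27. Over all 22 pairs the gaps ran from -1.19 to 0.48. At the lower end, HTR7P1 was at 2.16 and 2.70 FPKM while HTR7, a serotonin receptor gene, was at 0.319 and 2.52 FPKM, past 2-fold. At the upper end, PIGCP1 was at 14.3 and 17.2 FPKM while PIGC was at 13.5 and 11.4 FPKM.

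Some of the highest ratios belonged to members of gene clusters or families for which the symbol gives no parent. MT1P1, a copy of a metallothionein gene, a family of small metal-binding proteins, had the highest ratio of all measured pseudogenes, 3.05, from 3.32 FPKM in the young to 34.8 FPKM in the senescent library. MT1JP, within the metallothionein cluster of chromosome 16, was at 2.36 and 6.06 FPKM. The 5 measured coding MT1 genes of that cluster were each 2-fold higher, with MT1X at 6.57 and 62.5 FPKM. MT2A beside them was at 77.8 and 805 FPKM. H2BFS, since renamed as a histone gene, was at 54.8 and 247 FPKM, and HIST1H2BK at 33.2 and 170 FPKM. BX842568.1, 96.9% identical to the membrane protein gene TMEM47, was at 2.06 and 21.56 FPKM, with TMEM47 at 13.2 and 74.6 FPKM. BX842568.1 is 227 bases long, so 1 young fragment is worth more than the 0.629 FPKM given above for 300 bases. The size of its ratio is imprecise. FAM3C2, identical over its length to FAM3C, was at 5.95 and 20.97 FPKM, with FAM3C at 8.30 and 30.8 FPKM.

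CEACAMP11, CEACAMP7 and CEACAMP9 lie among the pregnancy-specific glycoprotein genes of chromosome 19, relatives of the carcinoembryonic antigen family. CEACAMP11 (chr19:43783085-43788470) was at 0.517 FPKM in the young and 7.47 FPKM in the senescent library, CEACAMP7 at 0.111 and 4.32 FPKM and CEACAMP9 at 0.133 and 3.27 FPKM. The young values are near or below what 3 fragments give on a transcript of 700 bases, 0.377 FPKM, so the size of these ratios is imprecise. Within 100000 bases of the glycoprotein genes the table places 11 pseudogenes, 10 of them above 0, and 9 of these were higher in the senescent library. The other was AC005204.2, a ribosomal protein copy now named RPS10P28, at 20.7 and 16.7 FPKM, with RPS10 at 255 and 194 FPKM. Only 6 of the 11 were measured, of which 5 had a positive ratio and 3 were 2-fold higher. Of all measured pseudogenes, 32.7% had a positive ratio and 2.41% were 2-fold higher. All 9 coding glycoprotein genes were 2-fold higher, among them PSG4 at 8.70 and 50.4 FPKM and PSG9 at 0.759 and 11.7 FPKM. These neighbours were looked up after the values of the pseudogenes were seen. CEACAMP11, CEACAMP7 and CEACAMP9 shared no 50-base window with any coding transcript.

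On the lower side, CASP4LP (RP11-693N9.2, 9 transcripts), in the caspase cluster of chromosome 11, was at 7.38 and 0.972 FPKM. With its most abundant transcript as the gene's value, its log2 ratio of -2.09 became -0.73, inside 2-fold. CASP4, the inflammatory caspase it resembles most, was at 42.3 and 49.2 FPKM, and CASP1 in the same cluster at 7.61 and 2.08 FPKM. AC079780.3, a short sequence 98.1% identical to NREP, was at 45.4 and 10.7 FPKM, with NREP at 168 and 38.6 FPKM. AC079780.3 is 207 bases long, where 1 senescent fragment is worth more than the 0.675 FPKM given above for 300 bases. The size of its ratio is imprecise. AP000580.1, a copy of the ribosomal protein gene RPS20, was at 5.80 and 0.582 FPKM, the lowest ratio of all at -2.10, while RPS20 was at 282 and 144 FPKM. AP000580.1 overlaps RSF1 on the same strand, at 75.4 and 88.0 FPKM. AC010170.1, for which no sequence was matched, was at 13.4 and 3.46 FPKM.

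Of the measured pseudogenes, 873 lay over a measured coding gene other than their parent, 353 on the same strand. Their log2 ratios followed those of the overlapping gene weakly, with r of 0.16 and rho of 0.15. Of 61 past 2-fold, the overlapping gene was past 2-fold in the same direction for 11, in the opposite direction for 4 and within 2-fold for the rest. Beside them stand 812 pseudogenes within 2-fold. Their overlapping gene was 2-fold higher for 55, 2-fold lower for 68 and within 2-fold for 689. PTMAP8 (RP11-324H4.1) was at 24.3 and 5.42 FPKM, on the strand opposite to LSAMP, a neural adhesion gene at 42.1 and 8.61 FPKM, and its parent PTMA was lower as well. Without all pseudogenes over a measured coding gene, 63 were 2-fold lower and 54 higher, beside 110 and 68 among all 2816 measured. That setting leaves out 873 of the 2816, so its counts come from a smaller set and cannot be compared as counts. It was added after the data were seen.

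Of 51 well-known pseudogenes named in a fixed list, 25 were in the table as pseudogenes and 17 were measured. HMGA1P6, a copy of the gene of a chromatin protein, was at 27.6 and 28.7 FPKM, nearly equal, while HMGA1 was at 220 and 155 FPKM. EEF1A1P5 was at 564 and 291 FPKM and EEF1A1P6 at 750 and 528 FPKM. PTTG3P, a copy of the securin gene of chromosome separation, was at 1.66 and 0.480 FPKM.

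The authors' deposited table carries q-values of the authors' own comparison of transcripts, made from 1 library a group. At q under 0.1, the authors' deposited table called 20 of 4722 tested pseudogene transcripts (0.424%), beside 3.69% of coding and 3.26% of all tested transcripts. The smallest q in the authors' deposited table belonged to 1 transcript of RPSAP19 (RP11-556K13.1), at 21.7 and 1.62 FPKM with q = 0.000722. The gene as a whole was at 56.6 and 33.2 FPKM, within 2-fold. For MT1P1 the authors' deposited table gave q = 0.00123, for RRM2P3 q = 0.00364, for CEACAMP11 q = 0.00427 and for LINC00328-2P (RP11-38M15.9, at 1.29 and 15.6 FPKM) q = 0.00852. These q-values rest on a model of the spread and not on replicates. LINC00328-2P is 219 bases long, where 1 young fragment is worth more than the 0.629 FPKM given above for 300 bases. The size of its ratio is imprecise.

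Some entries listed as pseudogenes carry the symbol, old or current, of a coding gene or a ribosomal RNA. TMEM120A, a membrane protein gene listed with 16 transcripts, was at 8.04 and 27.0 FPKM, inside 2-fold by its most abundant transcript alone (a log2 ratio of 0.78), and SMIM10L1 (RP11-785H5.1) at 7.80 and 19.3 FPKM. RN28S1, a stretch of the large ribosomal RNA on chromosome X, was at 782 and 1288 FPKM. At the limit of length, 91 measured pseudogenes under 250 bases had a median log2 ratio of -0.11, and 89 of 150 bases up to the limit of 200, which the rule leaves out, had a median of 0.03.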

How the data were processed

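Total RNA of 2 samples, 1 young and 1 senescent, was sequenced. The submitters' processing notes name Cuffdiff, Cufflinks 2.0.2, TopHat2 2.0.6 and the build hg19, with no role or order; how reads that fit several places were handled is not given in the sources used here. The deposited isoform table holds FPKM per transcript for each sample, made by the authors, with the p-values, q-values and fold ratio of the authors' own comparison. The column headed as old was taken as the senescent sample. No per-sample column was left unused (0 columns).

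FPKM of annotated transcripts of 200 bases or more were summed per Ensembl gene (Python 3.11.15, pandas 2.3.3, numpy 2.4.6). A gene was called measured at 1 FPKM in at least 1 library and counted as higher or lower past 2-fold of (FPKM + 1). No sample test was possible with 1 library per group. Parents came from the symbol in the file, and current symbols were looked up by Ensembl identifier for 2645 of 2816 measured pseudogenes. Transcript sequences were taken from GENCODE 29 by identifier, 2021 of 2480 with the length given in the file, and aligned to coding transcripts with blastn 2.17.0 (word size 16, e-value limit 1e-10). Coordinates are those of the file. Depth was estimated as 15910000 and 14810000 effective fragments from low values of unnamed loci, of which 75.6% and 79.7% were whole multiples within 0.05, while 9.54% and 9.97% of pseudogene values were, where 10% is chance; no counts were recovered, and all limits cover counting error only. The summing and calling were run on a copy of the young values with large changes planted in pseudogenes at 5 FPKM or more. That run checks the code only, and not counting error or calls near 1 FPKM.

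Named pseudogenes were the 8 highest and 8 lowest ratios at 5 FPKM or more, the 6 of highest level, the 4 pairs of largest gap on each side among pairs whose members both reach 5 FPKM in either library, the 4 strongest pairs in the same direction, the 2 largest ratios of each list, the 6 smallest q-values and a fixed list of 51 well-known names. Others are named as examples after their values were seen, including copies of RPL23A, mitochondrial copies, neighbours of the glycoprotein, metallothionein and caspase genes, and pseudogenes above their parent. The members and lists were chosen with earlier results of these data known. Alternatives changed the pseudocount, level filter, length, gene value, scaling, fold rule, status and parent rule. Some members of the fixed list are not reported here.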

Additional observations from a re-analysis of the deposited data

Results flagged for a closer look

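Signals outside the summed annotated transcripts were present in 3 places. The 1 transcript of the table placed on the mitochondrial chromosome, 450 bases long, was at 212 FPKM in the young and 339 FPKM in the senescent library. An assembled isoform of AC002055.4 (RPL23AP82), not part of the sums above, was at 20.6 and 17.9 FPKM, while its annotated transcripts together were at 22.9 and 48.1 FPKM. An assembled isoform of CEACAMP10, in the glycoprotein cluster of chromosome 19, was at 0.458 and 16.7 FPKM, while the annotated transcripts of CEACAMP10 were at 0.456 and 1.47 FPKM. How these signals arise was not tested.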

How the results depend on the processing

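No paired analysis was possible because each group has 1 library. Of 91 values of the main results under alternatives, 67 stayed within the set limits (counts within 1.5 times) and 24 moved. The 68 higher and 110 lower pseudogenes became 129 and 309 with a pseudocount of 0.1 FPKM, 21 and 22 with 5 FPKM, 39 and 60 at a minimum of 5 FPKM, 37 and 51 at 500 bases or more, 20 and 14 with a 3-fold rule, and 63 were lower without pseudogenes over a coding gene. That last setting leaves out 873 of the measured pseudogenes, so its count comes from a smaller set. The 36 pairs past 2-fold together became 59 with a pseudocount of 0.1, 13 with 5, 21 at 500 bases, 7 at 3-fold, 60 with current symbols and 2 without a shared window. The 0 opposite pairs became 1 with a pseudocount of 0.1 and 1 with current symbols. The 11 that moved with an overlapping gene became 29 with a pseudocount of 0.1, 1 with 5, 2 at a minimum of 5 FPKM, 2 at 500 bases and 1 at 3-fold. The cell-division median of -0.92 became -1.55 with a pseudocount of 0.1, -0.28 with 5 and -0.29 without a filter, and the metallothionein median of 2.06 became 1.42 with a pseudocount of 5. The median of all measured pseudogenes ran from -0.34 to -0.06 and the median gap from -0.05 to 0.05. Of 640 values of 67 named pseudogenes, 601 were as before, 17 fell inside 2-fold, 3 passed it, 19 moved and none changed sign; 5 of 119 list medians changed sign. Settings on current symbols, shared windows, assembled isoforms of parents and overlapping genes were chosen after seeing the data. The cause of each shift was not tested. With 1 library per group and few fragments on short transcripts, values near 1 FPKM limit all counts.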
